A study of Mus musculus with 119 samples.

Results

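The genes described here are the ligands and receptors of 4 axon guidance systems, chosen by their names: the ephrins and Eph receptors, the semaphorins with the plexins and neuropilins, the netrins with Dcc and the Unc5 receptors, and the Slit ligands with the Robo receptors. The names matched 69 of the 55291 genes in the count tables. Of these, 35 were ligands and 34 were receptors. The Eph/ephrin system held 22 members, the semaphorin/plexin/neuropilin system 31, the netrin/Dcc/Unc5 system 9 and the Slit/Robo system 7. RNA was sequenced from tissue punches of female and male mice. The 5 regions were the ventral tegmental area (VTA), the nucleus accumbens (NAc), the prefrontal cortex (PFC), the amygdala (Amy) and the dorsal medial striatum (DMS). Each mouse had received vehicle or 10 mg/kg delta-9-tetrahydrocannabinol (THC, the main psychoactive compound of cannabis) by daily intraperitoneal injection from postnatal day 28 to 48, and testing began on postnatal day 63, after the drug had been withdrawn. The labels give C57BL/6J mice of 11 weeks and the dorsolateral striatum, where the study's methods give C57BL/6NCrl mice and the DMS. Each group of 1 region, sex and treatment held 6 libraries, except that the male VTA had 5 with vehicle, which gave 119 in all.

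Axon guidance molecules steer growing axons by attraction or repulsion, and many stay expressed in the adult brain, where they act on synapses and dendritic spines. Ephrins and most semaphorins are held on the cell surface and signal by contact, through Eph receptors and through plexins. Netrins, Slits and the class 3 semaphorins are secreted, and are read by Dcc and Unc5, by Robo receptors and by neuropilins paired with plexins. In punches of tissue, fewer cells of a type and less RNA per cell cannot be told apart.

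Libraries held between 3090998 and 77042133 counts, with a median of 22092612. Several defining markers went with the region labels. The glutamate transporter Slc17a7 reached median levels of 1902 CPM (PFC) and 620 CPM (Amy). The dopamine receptor Drd1 reached 322.2 CPM (DMS) and 176 CPM (NAc), and the dopamine transporter Slc6a3 1245 CPM in the VTA. None of these marked the Amy alone. Sim1, from a list for the hypothalamus and medial amygdala, had medians of 0.965 CPM in the Amy and 3.84 CPM in the VTA. Otp, of the same list, reached 14.4 CPM in the Amy and 17.9 CPM in the VTA. In the DMS, the NAc and the VTA the median of Slc17a7 was between 2.51 and 2.85 CPM, and 1 library of the DMS, 4 libraries of the NAc and 4 of the VTA exceeded 50 CPM. The genes that mark sex went against the label in 2 libraries, THC replicate 6 of the female Amy and THC replicate 6 of the male Amy, and calls for the Amy are given with and, where they rest on them, without them. A level is in counts-per-million (CPM) after TMM scaling over all 119 libraries, given as mean ± SD over the 24 libraries of a region (23 for the VTA) unless stated. Levels of the PFC and DMS come from 1 count table and levels of the NAc, Amy and VTA from the other, so that tests between regions were made only within a table.

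Promoters are shown for 6 members that the results turn on: Sema7a, Epha7, Epha4 and Plxnd1, which were higher in the Amy of THC-treated females, and Robo3 and Ephb6, which led in the PFC. The sequences are from RefSeq on GRCm38.p6, the build named mm10 in the submitters' processing notes. Each runs from 250 bases before to 50 bases after an annotated start, 5′ to 3′ on the strand of the gene. Capitals mark GGGCGG, the GC box, on either strand. Sema7a lies at chr9:57939862-57940161 (+ strand), Epha7 at chr4:28812881-28813180 (+ strand), Epha4 at chr1:77515039-77515338 (- strand), Plxnd1 at chr6:115994956-115995255 (- strand), Robo3 at chr9:37433126-37433425 (- strand) and Ephb6 at chr6:41605261-41605560 (+ strand). For Epha7 the first of the starts listed is shown.
Sema7a: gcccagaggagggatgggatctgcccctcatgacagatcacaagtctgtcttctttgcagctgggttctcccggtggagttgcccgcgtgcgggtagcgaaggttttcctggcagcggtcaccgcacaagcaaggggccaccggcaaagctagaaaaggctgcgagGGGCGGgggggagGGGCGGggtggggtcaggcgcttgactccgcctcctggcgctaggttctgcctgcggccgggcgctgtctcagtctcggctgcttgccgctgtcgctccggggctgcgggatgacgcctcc
Epha7: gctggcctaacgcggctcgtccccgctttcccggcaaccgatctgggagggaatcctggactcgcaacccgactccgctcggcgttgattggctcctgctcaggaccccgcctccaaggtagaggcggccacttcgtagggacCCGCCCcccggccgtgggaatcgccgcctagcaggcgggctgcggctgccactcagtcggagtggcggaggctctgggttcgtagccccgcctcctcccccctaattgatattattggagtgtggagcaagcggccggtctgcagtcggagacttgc
Epha4: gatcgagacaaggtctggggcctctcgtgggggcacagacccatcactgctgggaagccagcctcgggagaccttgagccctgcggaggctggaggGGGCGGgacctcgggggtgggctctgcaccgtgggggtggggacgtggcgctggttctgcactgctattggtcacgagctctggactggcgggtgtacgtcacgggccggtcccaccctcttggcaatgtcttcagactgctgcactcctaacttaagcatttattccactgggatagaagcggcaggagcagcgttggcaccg
Plxnd1: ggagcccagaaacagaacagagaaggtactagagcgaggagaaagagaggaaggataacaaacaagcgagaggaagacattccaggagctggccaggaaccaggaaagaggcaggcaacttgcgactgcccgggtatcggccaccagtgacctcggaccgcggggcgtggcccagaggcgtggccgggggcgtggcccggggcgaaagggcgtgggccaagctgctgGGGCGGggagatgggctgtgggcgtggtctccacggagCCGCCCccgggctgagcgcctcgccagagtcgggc
Robo3: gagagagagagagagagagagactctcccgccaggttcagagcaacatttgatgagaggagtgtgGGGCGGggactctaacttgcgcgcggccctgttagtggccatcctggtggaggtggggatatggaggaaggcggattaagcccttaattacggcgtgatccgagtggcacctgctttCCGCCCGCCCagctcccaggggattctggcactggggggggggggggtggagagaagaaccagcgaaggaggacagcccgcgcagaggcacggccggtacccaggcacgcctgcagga
Ephb6: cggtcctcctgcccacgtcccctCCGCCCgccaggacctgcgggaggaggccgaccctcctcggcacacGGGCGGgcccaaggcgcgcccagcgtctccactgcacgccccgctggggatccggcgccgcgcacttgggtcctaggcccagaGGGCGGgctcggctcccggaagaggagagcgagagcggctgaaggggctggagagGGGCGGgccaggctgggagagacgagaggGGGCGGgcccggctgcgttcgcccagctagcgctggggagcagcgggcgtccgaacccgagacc
All 6 held the GC box, with 2 matches in Sema7a, 1 in Epha7, 1 in Epha4, 2 in Plxnd1, 3 in Robo3, of which 2 overlap, and 5 in Ephb6. None of the 6 held TATAAA or TGACGTCA (the cyclic AMP response element). Promoters were matched for 59 of the 69 members, and no entry was found for Dcc, Efnb3, Ntn1, Plxna1, Plxna4, Sema3b, Sema3f, Sema6a, Slit1 and Unc5d. Over the 59, the GC box was held by 43 (72.9%), against 35.7% of 32851 promoters of the same length, and TATAAA by 2 (3.39%), against 13.6%. TGACGTCA was held by 1 member promoter (1.69%, against 1.79%). The median GC content was 64.7% in the member promoters and 52.7% in all promoters. Each member counted with 1 promoter, whereas the 32851 include every start listed, so that the bases of these comparisons differ. A match describes the letters in this window and shows no binding.

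Nearly every member was read in every region, and the members differed in where they were highest. In all, 65 of the 69 had a mean of at least 1 CPM in each of the 5 regions, and 58 reached 10 CPM in at least 1 region. The ephrin ligand Efna4 and the receptor Epha1 stayed under 0.5 CPM in all 5. The highest mean was in the VTA for 21 members, in the Amy for 18, in the PFC for 12, in the NAc for 11 and in the DMS for 7. The lowest mean was most often in the DMS, for 28 members, and least often in the Amy, for 3. These counts were not set against those of all genes, and they rank regions across both count tables. With DESeq2 size factors in place of TMM, the highest region stayed the same for all 69 members. In 11 members every library of the highest region lay above every library of the second. The share of all genes that do so was not counted, and some of these pairs, as for Unc5b, Robo1 and Ephb3, come from different count tables.

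**Figure D1:**
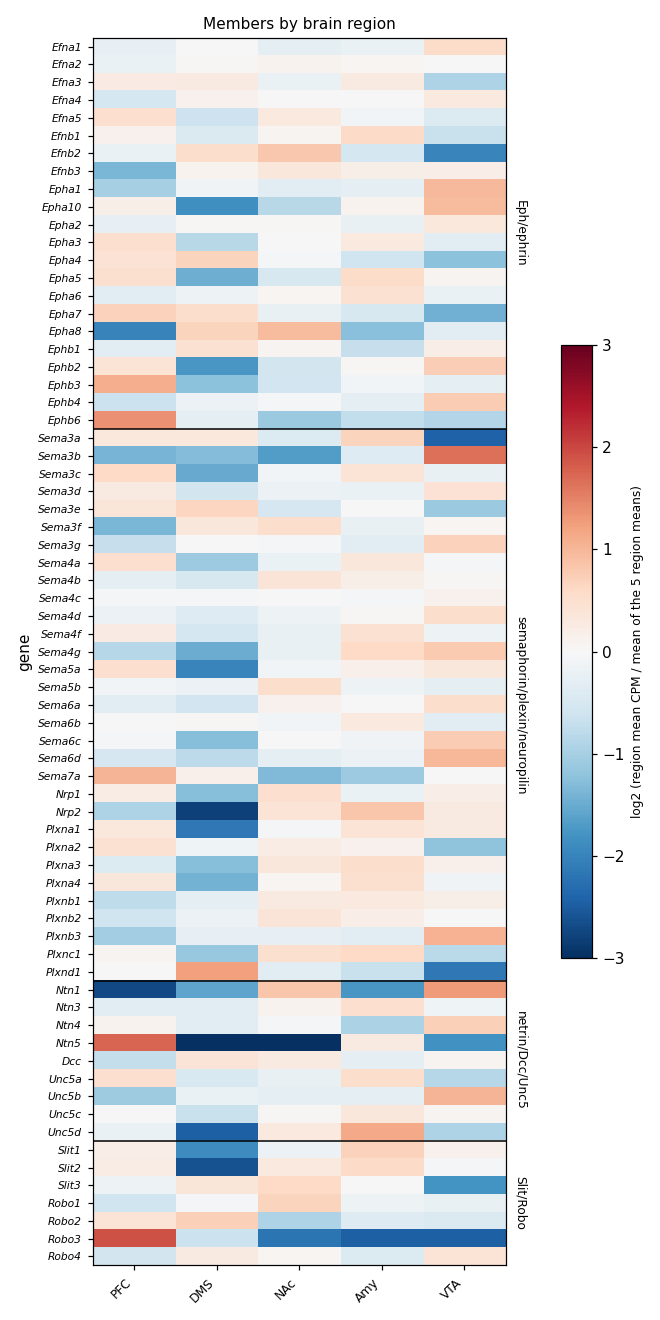
Colour shows the log2 ratio of the mean CPM of a region to the mean of the 5 region means, for the 69 members (rows, grouped by system) in the 5 regions (columns); values past an end of the colour bar take its end colour. The DMS column holds the lowest value of 28 members, and Robo3, Ephb6 and Ephb3 stand out in the PFC, Plxnd1 in the DMS and Ntn1 in the NAc and VTA.

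Compared per kilobase of exon, so that long and short genes can be set side by side, the member of highest level over the 5 regions was the ligand Efnb3, with a mean of 55.5 CPM per kb, followed by the transmembrane semaphorin Sema6b at 39.8 CPM per kb. The receptor Ephb6 followed at 28.2 CPM per kb, the membrane-anchored semaphorin Sema7a at 25.4 and the receptor Epha4 at 20.4 CPM per kb. At the other end, Epha1 was at 0.0417 and Efna4 at 0.151 CPM per kb. Efnb3, an ephrin known for repelling corticospinal axons at the midline, was at 68.6 ± 9.37 CPM (SD, n = 24) in the PFC and between 191 and 224 CPM in the other regions.

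Among the ephrins and Eph receptors, 7 of 22 members were highest in the VTA and 5 in the PFC, where the receptors Ephb6 and Ephb3 led. Ephb6, an Eph receptor that lacks kinase activity, had a mean of 273.7 ± 19.5 CPM in the PFC, with 248 CPM in the lowest library. Its next region was the DMS, at 87.5 ± 13.4 CPM with 115 CPM in the highest library, so that the regions did not overlap. Ephb3 was at 30.5 ± 2.81 CPM in the PFC and at 13.6 ± 1.78 CPM in its next region, the Amy, again without overlap. Epha10 was highest in the VTA, at 89.5 CPM, and lowest in the DMS, at 13.0 CPM. Among the 19 members at 1 CPM or more in each region, Epha8 had the widest range, 7.80-fold between 36.4 ± 4.31 CPM in the NAc and 4.66 ± 0.979 CPM in the PFC, whereas the ligand Efna2 had the narrowest, 1.25-fold. In the DMS, Ephb1 led with 84.0 ± 5.73 CPM, but its libraries overlapped with those of the VTA. In the Amy, the ligand Efnb1 led with 21.7 ± 3.84 CPM, against 16.1 ± 1.36 CPM in the PFC, also with overlap.

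Among the semaphorins and their receptors, the VTA held the most members at their highest level, 10 of 31. Sema6d, a transmembrane semaphorin, was at 190 ± 15.9 CPM in the VTA (n = 23) and 84.3 ± 11.9 CPM in the Amy, its next region. Every library of the VTA was above every library of the Amy for this gene. Plxnb3, the plexin that binds Sema5a, was at 60.3 ± 7.26 CPM in the VTA and 24.9 ± 4.10 CPM in the NAc. The summed CPM of 10 oligodendrocyte markers also stood highest in the VTA, between 10570 and 19760, against 1812 to 8697 in the other regions, and their part in these results was not tested. Sema3b, a secreted semaphorin, was uneven between libraries, with VTA libraries from 1.39 to 22.5 CPM, a median of 8.96 CPM, and Amy libraries from 0.612 to 14.4 CPM. The summed CPM of 8 leptomeningeal markers, a list added after the values had been seen, ran from 44.2 to 538 in the VTA and from 20.8 to 81.5 in the PFC; their part was not tested. Plxnd1, the plexin that binds Sema3e, was at 164 ± 13.5 CPM in the DMS and 69.9 ± 12.8 CPM in the PFC. Its ligand Sema3e was also highest in the DMS, at 50.2 ± 4.13 CPM, next to 40.9 ± 5.76 CPM in the PFC, and the libraries of those regions overlapped. The co-receptor Nrp2 had the widest range of the system, 12.4-fold, from 79.7 ± 18.9 CPM in the Amy to 6.44 ± 4.21 CPM in the DMS. Nrp1 led in the NAc at 29.0 ± 4.06 CPM, and Sema5b at 36.5 ± 4.72 CPM. Sema4c was nearly level, with a highest mean 1.14-fold above the lowest.

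In the netrin system, Ntn1 shared its highest region with the receptor Unc5b but not with Dcc or Unc5d. Ntn1, the netrin that attracts commissural axons, was at 118 ± 22.7 CPM in the VTA, 87.6 ± 9.54 CPM in the NAc, 16.3 ± 2.17 CPM in the DMS, 14.7 ± 2.25 CPM in the Amy and 7.45 ± 1.12 CPM in the PFC. Its 15.9-fold range was the widest among the 8 members of the system with at least 1 CPM in each region, and the libraries of the NAc and VTA overlapped. Its attractive receptor Dcc was highest in the DMS, at 60.9 ± 5.26 CPM, and lowest in the PFC, at 28.5 ± 3.48 CPM. The lead of Dcc in the DMS was 1.095-fold over the NAc, at 55.6 ± 4.46 CPM, which comes from the other count table. The libraries of those regions overlapped. The repulsive receptor Unc5b was at 85.9 ± 9.69 CPM in the VTA, above all libraries of its next region, the DMS, at 36.5 ± 4.26 CPM. Unc5d was instead highest in the Amy, at 101 ± 17.5 CPM, and at 8.44 CPM in the DMS. Ntn3 varied least among those 8, 1.81-fold. Ntn5 was the faintest netrin, at 1.82 ± 0.425 CPM in the PFC and at most 0.658 CPM elsewhere, and 23.4% of its exonic bases lie opposite exons of Sec1.

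In the Slit/Robo system, Robo3, a receptor known for the crossing of commissural axons, was the member with the clearest lead. It was at 24.1 ± 3.77 CPM in the PFC, with libraries from 17.2 to 36.6 CPM, against 4.06 ± 1.22 CPM in the DMS, with libraries from 2.02 to 6.23 CPM. Its mean was between 1.16 and 1.40 CPM in the NAc, Amy and VTA, a 20.8-fold range. Robo1 led in the NAc, at 120 ± 10.9 CPM against 73.4 ± 4.81 CPM in the DMS, without overlap. Robo2 led in the DMS, at 199 ± 19.1 CPM against 162 ± 14.0 CPM in the PFC, with overlap. The secreted ligand Slit1 was highest in the Amy, at 114 ± 25.5 CPM, and Slit2 as well, at 70.1 ± 13.3 CPM. Robo4, a Robo of blood vessels, varied least, 1.94-fold.

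**Figure D2:**
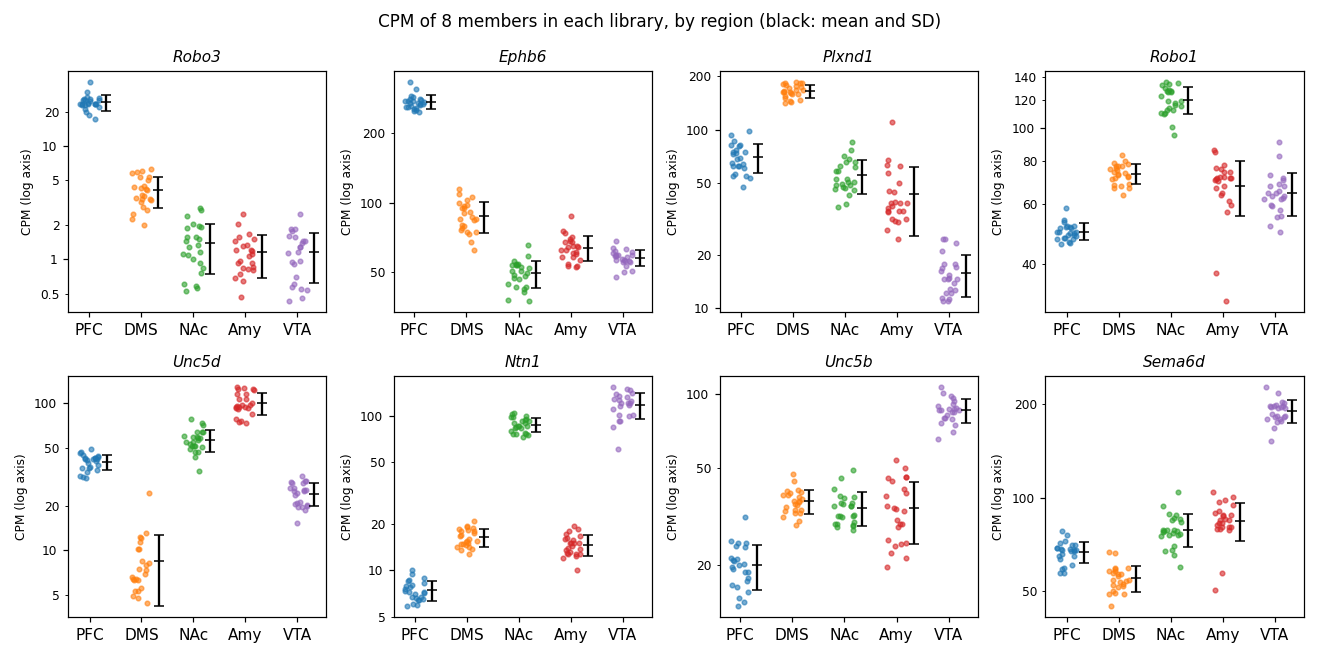
Points are single libraries (24 per region, 23 in the VTA), the vertical axes give CPM on a log scale, and black marks give the mean and SD, for 8 members by region. The PFC libraries of Robo3 and Ephb6, the DMS libraries of Plxnd1, the NAc libraries of Robo1 and the VTA libraries of Unc5b and Sema6d lie above all libraries of the next region.

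Tests between regions used edgeR's quasi-likelihood test with sex and treatment in the fit, and a gene was called at an adjusted p (Benjamini-Hochberg) under 0.05 and a log2 fold change of at least 1. The labels do not say which libraries of different regions came from the same mouse, so that these tests treat them as separate. Between the PFC and the DMS, 27 of the 67 members tested were called (40.3%), against 19.8% of the 16818 genes tested. Of these, 21 were higher in the PFC (background 10.6%) and 6 were higher in the DMS (background 9.11%). The 21 held ligands and receptors of all 4 systems, among them Slit2 at a log2 fold change of 2.84 ± 0.13 (SE), Sema5a at 2.48 ± 0.09, Plxna1 at 2.46 ± 0.08 and Unc5d at 2.26 ± 0.12. The 6 that were higher in the DMS were Epha8, at -2.66 ± 0.06, Sema3f, Efnb3, Plxnd1, Ntn1 and Dcc, at -1.10 ± 0.04. A single DMS library, vehicle replicate 1 of the females, read 206 CPM of Slc17a7, and without it 27 members were called.

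Between the Amy and the VTA, 21 of 67 members were called (31.3%), against a background of 16.7%. The 12 that were higher in the Amy (background 7.86%) included Sema3a, a secreted repellent, at a log2 fold change of 3.14 ± 0.13, and Unc5d at 2.05 ± 0.08. The 9 that were higher in the VTA (background 8.83%) included Ntn1 at -3.03 ± 0.08 and Ntn4 at -1.69 ± 0.07. Between the NAc and the VTA, 17 of 66 were called (25.8%), near the background of 21.8%. Efnb2, at 145 CPM in the NAc and 20.98 CPM in the VTA, had a log2 fold change of 2.88 ± 0.10, and Epha10 of -1.76 ± 0.06. Between the NAc and the Amy, 7 of 67 were called (10.4%), with a background of 7.61%. Ntn1 at 2.61 ± 0.05, Epha8 at 2.22 ± 0.11 and Efnb2 at 1.36 ± 0.04 were higher in the NAc, and Epha5, Sema3a, Sema3b and Ntn5 were higher in the Amy. Without the 2 libraries that went against their labelled sex, 7 members were called between the NAc and the Amy and 20 between the Amy and the VTA.

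THC was then compared with vehicle in each region and sex, with 6 libraries against 6 (6 against 5 in the male VTA). A gene was called at an adjusted p under 0.05 and a log2 fold change of at least 0.4, up or down. Members were called in 1 of the 10 comparisons, the female Amy, where 4 were higher after THC. In the other 9 comparisons edgeR called 0 members and DESeq2 called 0. The edgeR background there was 0.0127% in the female DMS and 0% in each of the others. The share of all genes that DESeq2 called is not given here. With DESeq2 and these thresholds the paper reports called genes in the male NAc. At an unadjusted p under 0.05, those 9 comparisons held between 2 and 16 members. In females these were 4 in the PFC (5.97%, background 5.84%), 4 in the DMS (6.06%, background 8.89%), 3 in the NAc (4.55%, background 4.61%) and 4 in the VTA (6.06%, background 9.03%). In males they were 2 in the PFC (2.99%, background 4.07%), 3 in the DMS (4.55%, background 1.93%), 2 in the Amy (3.03%, background 1.83%) and 5 in the VTA (7.46%, background 5.92%). The male NAc held the most, 16 (24.2%, background 16.7%), of which 7 were higher and 9 lower.

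**Figure D3:**
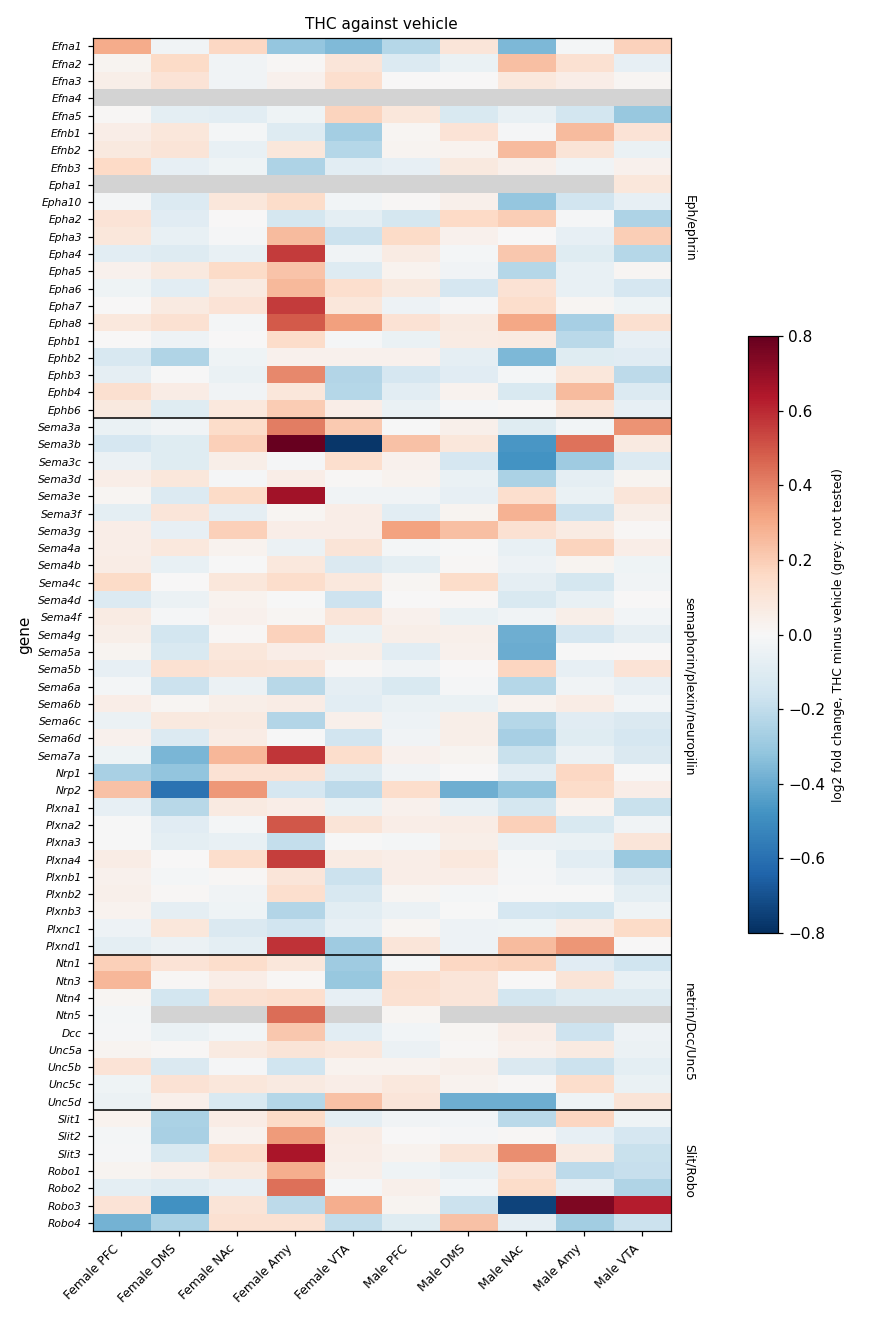
Colour shows the edgeR log2 fold change of THC minus vehicle for the 69 members (rows) in the 10 comparisons (columns), with grey where counts were too low for a test. The female Amy column holds the called members Sema7a, Epha4, Epha7 and Plxnd1, between 0.56 and 0.58, and no other column holds a called member.

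In the female Amy, 4 of 67 members were called (5.97%), all of them higher with THC, against 1.57% of the 17004 genes tested. In the background 1.09% were called higher and 0.476% lower. Sema7a, a membrane-anchored semaphorin that signals through integrins and Plxnc1, was at 25.3, 32.0 and 35.9 CPM (lowest, median and highest of 6) with vehicle and at 38.5, 48.9 and 54.6 CPM with THC. All 6 THC libraries lay above all 6 vehicle libraries, with a log2 fold change of 0.57 ± 0.10 (adjusted p = 0.0133). Epha4, an Eph receptor that binds ephrins of both classes, was at 57.0, 93.8 and 105 CPM with vehicle and at 108, 133 and 147 CPM with THC. The groups did not overlap, and its log2 fold change was 0.56 ± 0.12 (adjusted p = 0.0290). Epha7, a receptor of the ephrin-A ligands, was at 39.6, 48.8 and 60.6 CPM with vehicle and at 58.0, 77.1 and 88.6 CPM with THC. Of its 6 THC libraries, 5 lay above all vehicle libraries (log2 fold change 0.56 ± 0.12, adjusted p = 0.0274). Plxnd1 was at 24.5, 31.6 and 39.4 CPM with vehicle and at 34.7, 47.9 and 62.4 CPM with THC, with 4 of 6 above all vehicle libraries. Its log2 fold change was 0.58 ± 0.14 (adjusted p = 0.0486), the weakest of these calls. Ephb3 passed the adjusted p (0.0258) but not the fold, at 0.39 ± 0.08, with 11.9 ± 1.04 CPM for vehicle and 15.6 ± 1.48 CPM for THC (SD, n = 6) and no overlap.

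These calls depended on the libraries in the fit. Leaving out each library in turn kept Sema7a called in 12 of 12 fits, Epha7 and Epha4 in 6 each and Plxnd1 in 3, with log2 fold changes between 0.46 and 0.65. Ephb3 was under an adjusted p of 0.05 in 6 of the 12, with adjusted p-values up to 0.0713, and was called in 2. Without THC replicate 6, whose sex genes went against its label, Sema7a (0.60, adjusted p = 0.0213) and Epha7 (0.60, adjusted p = 0.0401) were called, and Epha4 (0.54, adjusted p = 0.0603) and Plxnd1 (0.59, adjusted p = 0.0784) were not. DESeq2 called 10 members, those 4 with Epha8, Plxna4, Robo2, Sema3a, Sema3e and Slit3. It also called more genes than edgeR over all genes, and its share of them is not given here. The 10 can therefore not be set against the edgeR background. In edgeR the added 6 had log2 fold changes from 0.41 to 0.67 with adjusted p-values from 0.0796 to 0.127.

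Markers of the nuclei in the punch moved with treatment in the same libraries. The summed CPM of 13 cortical and basolateral amygdala neuron markers was 2768 to 3619 with vehicle and 3605 to 4633 with THC, with 5 of 13 called higher and 0 lower. The sum of 15 medium spiny neuron markers of the striatum and central amygdala was 990 to 1701 with vehicle and 1466 to 2166 with THC, with 2 called higher. The sum of 15 markers of the hypothalamus and medial amygdala was 1771 to 2117 with vehicle and 1396 to 1668 with THC, with 1 called lower; 1 of the 15 stayed under 0.05 CPM. Without THC replicate 6, the calls in these 3 lists were 4 higher, 1 higher and 1 lower. Of the other lists, 1 of 8 astrocyte markers was called lower, with sums of 1006 to 1325 with vehicle and 910 to 1117 with THC, and 1 of 10 dopaminergic markers was called in each direction. The oligodendrocyte sum was 2423 to 7778 with vehicle and 2618 to 4602 with THC, with 0 of 10 called. Markers of the thalamus, oligodendrocyte precursors, microglia, endothelium, choroid plexus and leptomeninges had 0 called. Whether any of these had a part in the values of the members was not tested. A score of the first list minus the third, from standardized log2 CPM, lay between -1.76 and -0.203 in the vehicle libraries and between 0.362 and 2.05 in the THC libraries. Since the groups did not overlap on the score, a fit with both can hardly separate score from treatment. In it 0 members and 0 of all genes were called, and the log2 fold changes were 0.25 ± 0.20 for Sema7a, 0.30 ± 0.26 for Epha4, -0.05 ± 0.19 for Epha7 and -0.19 ± 0.22 for Plxnd1, with SEs larger than those given above. Depth also differed, with a median of 44472649 counts with THC and 26933795 with vehicle, and its part was not tested. All 4 called members had higher means in the PFC and DMS than in the Amy, as in Epha7, at 132, 116.5 and 58.5 CPM. Members that were not called, such as Ephb1, Ephb6 and Robo3, had this order too. These levels come from both count tables, and whether they had a part in the calls was not tested.

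Over all 67 members tested in the female Amy, the 4 called ones included, 19 passed at an unadjusted p under 0.05 (28.4%, background 21.9%). Of these, 15 were higher (22.4%, background 10.8%) and 4 were lower (5.97%, background 11.1%). Among the 63 that were not called, 11 were higher and 4 were lower. The median log2 fold change was 0.09 over the members and -0.01 over all genes tested. The higher ones that were not called lay in 3 of the systems, such as the repellent ligand Slit3 (25.8 ± 7.89 to 40.7 ± 4.89 CPM, adjusted p = 0.0901), its receptor Robo2 (80.6 ± 17.5 to 110 ± 12.3 CPM, adjusted p = 0.0985) and the plexin Plxna4 (123.4 ± 36.6 to 182 ± 19.1 CPM, adjusted p = 0.127). The lower ones were Sema6c, Efnb3, Unc5d and Plxna3, with log2 fold changes from -0.25 to -0.19. No member of the netrin system was among the 15. Sema3b had the largest log2 fold change, at 0.80 ± 0.85, on THC libraries of 0.672, 1.18 and 14.4 CPM and vehicle libraries of 0.682, 1.95 and 4.85 CPM. It did not pass (adjusted p = 0.604), and the leptomeningeal sum reached 256 CPM in the THC libraries and 103 CPM in the vehicle libraries.

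In the male Amy, none of these 4 genes was called. Sema7a was at 39.3 ± 6.95 CPM with vehicle and 38.2 ± 10.8 CPM with THC, Epha4 at 109 ± 30.1 and 102 ± 23.4 CPM, Epha7 at 54.2 ± 9.58 and 54.8 ± 9.92 CPM, and Plxnd1 at 41.4 ± 12.1 and 52.9 ± 31.2 CPM. Their log2 fold changes were -0.05 ± 0.16, -0.10 ± 0.18, 0.01 ± 0.13 and 0.36 ± 0.33. The sum of the cortical and basolateral markers was 2335 to 3834 with vehicle and 2702 to 4816 with THC there, with 0 of 13 called. The highest, 4816, was THC replicate 6, whose sex genes went against its label. The medium spiny sum was 1384 to 2694 with vehicle and 1072 to 3930 with THC. That of the hypothalamus and medial amygdala was 1406 to 2079 and 1438 to 2157. Of these 2 lists 0 markers were called, and their part was not tested. The sex x treatment interaction, the male effect minus the female effect, called 0 of 67 members in the Amy (edgeR background 0.0059%), and DESeq2 called 0. Its values were -0.61 ± 0.20 for Sema7a (adjusted p = 0.251), -0.66 ± 0.23 for Epha4 (adjusted p = 0.256), -0.54 ± 0.19 for Epha7 (adjusted p = 0.256) and -0.22 ± 0.37 for Plxnd1 (adjusted p = 0.790). At an unadjusted p under 0.05, 15 members passed (22.4%, background 15.8%). In 14 of these the male effect was below the female effect (20.9%, background 6.6%). Without the 2 libraries that went against their labelled sex, 0 members were called as well. The male and interaction values of the 4 genes are given only with these libraries in the fits.

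**Figure D4:**
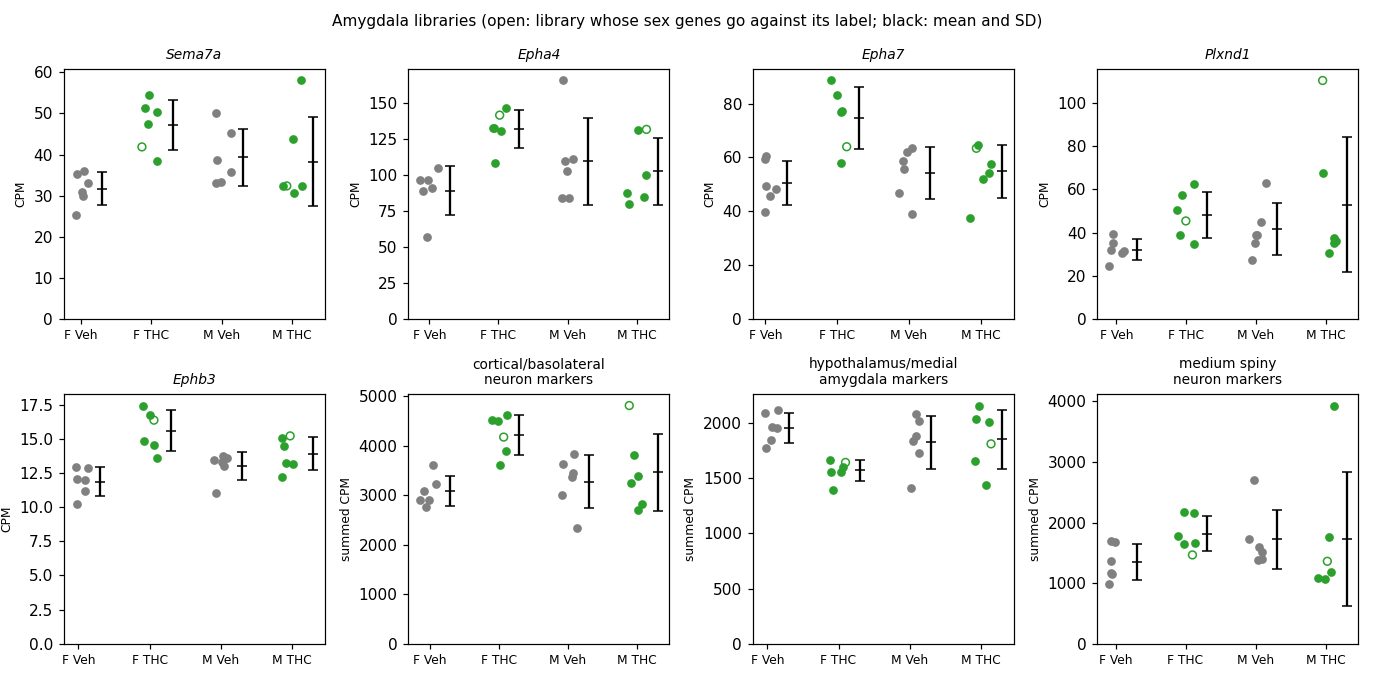
Points are the Amy libraries by sex and treatment (6 per group), with CPM or summed marker CPM on vertical axes that start at 0 and the mean and SD in black; open points are the 2 libraries whose sex genes went against the label. The THC libraries of females lie above all vehicle libraries for Sema7a, Epha4 and Ephb3, and for the sum of cortical and basolateral markers the lowest THC library (3605) is just under the highest vehicle library (3619).

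Outside the Amy, the members of smallest p did not pass adjustment. In the male NAc, Epha8 was at 27.7, 32.4 and 35.6 CPM with vehicle and at 37.7, 39.5 and 41.1 CPM with THC, without overlap (0.31 ± 0.05, adjusted p = 0.210). Sema3f, the semaphorin that binds Nrp2, was at 22.2, 27.9 and 30.7 CPM with vehicle and at 31.6, 32.97 and 37.7 CPM with THC, again without overlap (0.28 ± 0.07, adjusted p = 0.210). Of 15 medium spiny neuron markers, 14 were higher in those THC libraries at an unadjusted p under 0.05 and 0 were called, with sums of 4102 to 6000 with vehicle and 5361 to 8108 with THC, and their part was not tested. Sema7a was again the leading member in the female NAc and the female DMS. In the NAc it was at 27.8, 29.6 and 31.6 CPM with vehicle and at 32.4, 36.2 and 38.9 CPM with THC, without overlap (0.27 ± 0.05, adjusted p = 0.991). Of those THC libraries, replicates 1, 2 and 6 were over 50 CPM of Slc17a7, and Sema7a was at 36.7, 34.9 and 38.9 CPM in them and at 32.4, 35.7 and 36.8 CPM in the other 3. In the DMS it was lower with THC, at 86.1, 90.2 and 97.6 CPM, than with vehicle, at 95.0, 114 and 142 CPM (-0.36 ± 0.08, adjusted p = 0.212). The sum of the cortical and basolateral markers was 2671 to 3446 in the vehicle libraries of the female DMS and 2347 to 2689 in the THC libraries, and 1384 to 2051 and 1664 to 2140 in the female NAc. The NAc and DMS values of Sema7a thus had opposite signs, and the difference between the regions was not tested.

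The remaining leading members differed by less. In the female PFC, Ntn3 (0.26 ± 0.09) and Nrp2 (0.23 ± 0.09) had adjusted p-values of 0.787 and 0.803. In the male PFC, Sema3g was at 0.32 ± 0.12 and Ephb3 at -0.14 ± 0.05, both at an adjusted p over 0.99. Robo3 in the female DMS was at -0.48 ± 0.16 (adjusted p = 0.354), with 5.01 ± 1.19 CPM for vehicle and 3.58 ± 0.666 CPM for THC. In the male DMS, Epha6 (-0.13 ± 0.05) and Robo4 (0.24 ± 0.09) led, each with 5 of 6 THC libraries outside the vehicle range. Epha5 in the female NAc was at 0.15 ± 0.05. In the male Amy, Robo3 was at 0.75 ± 0.29 on levels of 0.926 ± 0.307 and 1.56 ± 0.606 CPM, and Epha10 was at -0.15 ± 0.06. In the female VTA, Sema4d (-0.16 ± 0.06) and Sema6d (-0.15 ± 0.06) had adjusted p-values of 0.512. In the male VTA, Plxna4 was at -0.30 ± 0.11 and Epha4 at -0.23 ± 0.09, with overlapping groups. With both sexes in a fit and sex as a covariate, 0 members were called in any region by edgeR or DESeq2, and the edgeR background was 0%. At an unadjusted p under 0.05 there were 4 members in the PFC (background 4.78%), 2 in the DMS (background 4.89%), 6 in the NAc (background 10.3%), 9 in the Amy (background 7.05%) and 6 in the VTA (background 10.2%). The interaction outside the Amy called 0 members by either tool, with 2 at an unadjusted p under 0.05 in the PFC (background 5.87%), 4 in the DMS (background 5.9%), 16 in the NAc (background 11%) and 3 in the VTA (background 6.16%). Sema7a in the NAc had the smallest p, at -0.44 ± 0.10 (adjusted p = 0.383).

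Males and females, with treatment as a covariate, differed in Sema3b. It was higher in males in the PFC, at 1.56 ± 0.504 against 0.951 ± 0.338 CPM (SD, 12 libraries each, log2 fold change 0.70 ± 0.19, adjusted p = 0.0491). In the DMS it was at 1.66 ± 0.414 against 1.04 ± 0.390 CPM (0.69 ± 0.19, adjusted p = 0.0199). It was the single member called among 67 in the PFC (1.49%, background 0.24%) and among 66 in the DMS (1.52%, background 2.64%). In the DMS, 7 further members of 66 passed the adjusted p under the fold of 0.4 (10.6%), against 8.46% of all genes. Epha8, Plxnb2 and Sema4b were higher in males, and Ephb6, Sema6b, Sema7a and Slit3 were higher in females. Their log2 fold changes ran from -0.32 to 0.29. In the NAc, Amy and VTA 0 members were called by edgeR or DESeq2, against edgeR backgrounds of 0.243%, 0.012% and 0.109%. Without the 2 libraries that went against their labelled sex the Amy count was 0 as well. At an unadjusted p under 0.05 there were 10 members in the PFC (14.9%, background 16.3%), 18 in the DMS (27.3%, background 27.8%), 7 in the NAc (background 16.6%), 2 in the Amy (background 6%) and 6 in the VTA (background 7.16%).

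Other genes of axon guidance were read from lists of further ligands and receptors (28 genes) and of intracellular effectors (50 genes). Both lists were written with earlier results of these data known, so that their counts are not independent support. In the female Amy, 3 of 28 in the first list were called higher after THC and 0 lower, with 1.09% and 0.476% of all genes as background. They were Rtn4r, the Nogo receptor, at 0.64 ± 0.11 (adjusted p = 0.0129), its partner Lingo1 at 0.57 ± 0.08 (adjusted p = 0.00854) and the contactin Cntn4 at 0.50 ± 0.09 (adjusted p = 0.0203). All 3 were also called without THC replicate 6, at 0.64, 0.56 and 0.52. The median log2 fold change of the list was 0.15. Of the effectors 0 were called, with 11 higher and 3 lower at an unadjusted p under 0.05 (backgrounds 10.8% and 11.1%) and a median of 0.08. Chn1, which acts below Epha4, passed the adjusted p (0.0203) at 0.37 ± 0.07. In the other 9 comparisons 0 genes of either list were called. In the comparison of PFC with DMS, 8 of 28 further ligands and receptors were higher in the PFC and 3 in the DMS, and 6 and 2 of 50 effectors, with 10.6% and 9.11% of all genes as background.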

How the data were processed

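RNA-seq libraries of 5 brain regions of female and male mice, 119 in all, were analysed by region, sex and treatment as given in the labels. The authors trimmed reads with cutadapt 2.9, aligned them to mm10 with STAR 2.7.3a and estimated gene counts with RSEM 1.3.1 (versions from the submitters' processing notes). They deposited expected counts per gene in 2 tables; the annotation release and strand setting are not given in the sources used here. RSEM divides reads shared by similar genes, so that 4.75% and 5.00% of values were not whole; they were rounded. Every per-sample column was used. Libraries held 3090998 to 77042133 counts.

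Genes passing edgeR's filterByExpr were TMM-normalized and tested with edgeR 4.0.16 (quasi-likelihood, robust) in R 4.3.3, with Benjamini-Hochberg adjustment over all genes tested. Levels are TMM CPM over all 119 libraries. Alternatives were DESeq2 1.42.0, its size factors and unfiltered genes. The THC comparisons were also run with the 4 groups of a region fitted together and with each library left out in turn. Of the other tests, only those with the VTA had single libraries left out, the male vehicle ones in turn. The THC comparisons of the Amy were also run with a marker score as covariate. Suspect libraries were left out as well. Leaving out libraries over 50 CPM of Slc17a7, or against their labelled sex in region pairs, was chosen after seeing the data. Data simulated with a fixed dispersion were used to test edgeR for THC against vehicle, the interaction, sex as covariate and a region pair. DESeq2 was tested on them for THC against vehicle. The marker-score fit, the 4 groups fitted together and the comparison of sexes were not simulated. The labels do not tie libraries to mice, so p-values measure the spread between libraries.

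The members and gene lists were chosen with earlier results of these data known, and the leptomeningeal list after its values were seen. Named genes were the called members, the 2 of smallest p in each THC comparison, the 4 leading each region by their ratio to the next, the narrowest and widest range in each system, and members under 0.5 CPM everywhere. Others were named with their level or fold change.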

Additional observations from a re-analysis of the deposited data

Results flagged for a closer look

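Of 46 groups of named values tested for a library far from the rest, 1 stood out, where chance would flag about 1 in 20. Epha4 in the vehicle libraries of the female Amy was lowest in replicate 6, at 57.0 CPM, and the nearest library was at 88.5 CPM. The gap was 0.657 of the group's range, against a critical value of 0.625. Leaving out each library of that comparison in turn, this one included, gave log2 fold changes of Epha4 between 0.46 and 0.60.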

How the results depend on the processing

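Of 533 alternative values for single genes, 500 kept their direction and their side of the threshold, 29 no longer passed, 2 newly passed and 2 changed sign. Of 258 alternative counts of called members, 245 stayed within 1.5 times the reported count. Many reported counts were 0 and many of the single genes were not called, so that much of this agreement is of results that stayed uncalled. In the female Amy, 10 members were called by DESeq2, 2 with all 4 groups of the region in a fit, 2 without the library against its labelled sex and 0 with the amygdala marker score as a covariate. With that score, on which the treatment groups did not overlap, Epha7 (-0.048, SE 0.19) and Plxnd1 (-0.193, SE 0.22) changed sign; both lay within 1 SE of 0. Leaving out each library in turn gave 1 to 4 called members there: 1 when vehicle replicate 1 or 3 or THC replicate 2 or 4 was left out, and 2 for THC replicate 1 or 6. Over all genes DESeq2 called 546 there, more than edgeR did, and the number of genes it tested is not given here. Sema3b in the PFC was not called between the sexes without the filter on low counts (0 members, adjusted p = 0.0653). In the DMS, DESeq2 called 3 members between the sexes, Sema3b with Slit2 and Unc5d. Its count over all genes in that comparison is not given here. Between the NAc and the Amy, 3 members were called in the vehicle libraries alone. The cause of these changes was not tested. No paired analysis was possible because the labels give library numbers without the mouse each came from. The shallowest library, at 3090998 counts, limits what can be read of the members near 1 CPM.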
